A study of Mus musculus with 22 samples.

Results

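The transcripts of 30 genes of the nuclear receptor superfamily were followed in mouse striatum and white adipose tissue (WAT) after thyroid hormone (TH). The 30 genes are the retinoic acid receptors, the oestrogen and oestrogen-related receptors, the progesterone, mineralocorticoid and vitamin D receptors, and a number of receptors for lipids, bile acids and xenobiotics or without a known hormone. They were taken as a fixed list of symbols, and all 30 had a row in both count tables, which held 55327 rows naming a gene in striatum and 47628 in WAT. The 19 other nuclear receptor genes of the mouse, among them the TH receptors themselves, served as a comparison list. A gene was tested in a tissue where its mean normalised count, that is its read count scaled to a common library size within the tissue, was above 10. By this limit 17 of the 30 genes were tested in both tissues, Pgr and Nr2e1 in striatum alone, and Esrrb, Vdr, Nr5a2 and Nr1h4 in WAT alone. The remaining 7 were low in both, so that 19 of 30 were tested in striatum and 21 of 30 in WAT.

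The series asked how gene expression in both tissues responds when TH is given to hypothyroid mice. All 22 libraries were labelled as coming from wild-type male C57BL/6J mice of 8 weeks. By their labels, control libraries came from animals made hypothyroid with propylthiouracil (PTU, which blocks TH synthesis) for 2 weeks. The other libraries carry a TH label with a time and no mention of PTU. The paper lists PTU in food for WAT and no hypothyroidism procedure for striatum, although the striatum controls are labelled PTU. For both tissues it lists a single injection of T3 and T4. Striatum was sampled without TH (2 libraries, numbered 3 and 6), at 12 h (4) and at 24 h (4), and WAT without TH, at 6 h and at 24 h, with 4 libraries each. Neither the dose of TH nor whether each library was 1 animal is given in the labels.

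Nuclear receptors are transcription factors that bind DNA directly, and many of them are switched by a small lipophilic ligand such as a steroid, retinoic acid, a bile acid or vitamin D. Most recognise variants of the half-site AGGTCA, alone or as a pair whose spacing and orientation differ between receptors, and the TH receptors prefer 2 direct repeats with 4 bases between them. Many members pair with the retinoid X receptors and use the same coactivators and corepressors as the TH receptors. In fat, PGC-1α (Ppargc1a) is the best known partner of the oestrogen-related receptors, and in striatum the retinoic acid receptor RARβ is a mark of projection neurons.

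The promoters of the 4 genes on which the results mainly turn are shown, since Esr1, Esrra and Esrrg rose together in WAT and Rara rose in striatum. The windows are those of RefSeq on GRCm38.p6 and run from 250 bases before the start of transcription to 50 after it, 5′ to 3′ on the strand of the gene, with an AGGTCA half-site in capitals where the window has one. They lie at chr10:4611739-4612038 on the plus strand (Esr1), chr19:6921759-6922058 on the minus strand (Esrra), chr1:187608756-187609055 on the plus strand (Esrrg, the first of 4 windows) and chr11:98964622-98964921 on the plus strand (Rara, the last of 4 windows). The Esr1 window is the first of 2.
Esr1: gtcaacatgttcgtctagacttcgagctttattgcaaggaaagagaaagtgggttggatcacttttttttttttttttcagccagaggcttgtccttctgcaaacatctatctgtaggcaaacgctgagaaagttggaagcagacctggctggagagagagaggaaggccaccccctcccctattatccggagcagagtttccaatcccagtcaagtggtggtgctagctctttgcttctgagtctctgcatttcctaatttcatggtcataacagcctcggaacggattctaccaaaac
Esrra: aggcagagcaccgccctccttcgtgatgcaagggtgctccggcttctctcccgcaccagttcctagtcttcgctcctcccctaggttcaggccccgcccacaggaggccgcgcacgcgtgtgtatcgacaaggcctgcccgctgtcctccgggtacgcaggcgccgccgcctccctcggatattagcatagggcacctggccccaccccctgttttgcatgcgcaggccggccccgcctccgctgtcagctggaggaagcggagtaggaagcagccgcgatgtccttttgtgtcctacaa
Esrrg: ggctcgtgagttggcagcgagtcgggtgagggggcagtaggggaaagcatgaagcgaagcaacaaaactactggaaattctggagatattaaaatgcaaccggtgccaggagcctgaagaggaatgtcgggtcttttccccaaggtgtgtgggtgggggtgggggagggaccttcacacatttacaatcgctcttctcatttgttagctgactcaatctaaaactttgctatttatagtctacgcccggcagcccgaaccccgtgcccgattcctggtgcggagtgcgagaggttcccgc
Rara: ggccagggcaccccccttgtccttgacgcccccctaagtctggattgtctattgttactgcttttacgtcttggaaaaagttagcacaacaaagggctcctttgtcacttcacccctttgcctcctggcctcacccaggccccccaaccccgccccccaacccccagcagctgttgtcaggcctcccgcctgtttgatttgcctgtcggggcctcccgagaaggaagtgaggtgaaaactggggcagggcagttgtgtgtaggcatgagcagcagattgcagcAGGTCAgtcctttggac

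The Rara window was chosen because it is the one of its 4 windows that holds AGGTCA, which starts 33 bases after the start of transcription. No window of Esr1, Esrra or Esrrg holds it. Windows existed for 29 of the 30 genes, 43 windows in all, and 5 of the 43 held AGGTCA on either strand (1 each of Nr1h4, Nr5a2, Nr6a1, Rara and Rarg), against 16.255% of all 32851 RefSeq windows of this length. The direct repeat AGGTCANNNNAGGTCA, which contains AGGTCA, was in 0 of the 43 windows and in 0.015% of all windows. The extended half-site of the oestrogen-related receptors, TCAAGGTCA, was in 0 of 43 and 0.423%, and the palindrome of the oestrogen receptors, GGTCANNNTGACC, in 0 of 43 and 0.07%. A match of letters is not a bound site, and the absence of letters from a window says nothing about a receptor bound elsewhere.

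Libraries held 8056443 to 10163849 counts in striatum and 17298747 to 26963433 in WAT. The tissue markers were present as labelled, with Adipoq at 32295 or more normalised counts in each WAT library and at 3.36 or fewer in striatum. Some libraries stood apart. The striatum library at 24 h numbered 2 had a summed count of 2858 for 9 markers of striatal projection neurons, against 21722 to 57673 in the other 9 striatum libraries. It also had the highest sum for 7 markers of cortical excitatory neurons (25457). These cortical markers were present in every striatum library, with sums of 4316 to 15902 in the other 9. Xist, which marks an inactive X chromosome, was at 22070 or more in 6 striatum libraries (PTU 6, 12 h 1 and all 4 at 24 h) although the labels give males, and at 17.8 or less in the other 4. It thus held for the whole 24 h group and for 1 library of each other group. In WAT the summed count of 7 skeletal muscle markers ran from 913 to 494828, with wide ranges inside groups. For 8 markers of epithelium and epididymis the sum was 51.5 to 850 in PTU. It was 132 to 3186 at 6 h and 50.9 to 70.8 at 24 h, without overlap between these times. In bulk tissue, fewer cells of a type and less RNA per cell cannot be told apart.

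Levels without TH differed between the tissues in which receptors led. Expressed per length, as CPM (counts scaled to the size of the library) per kb of exon, Rarb stood far above the others in striatum at 55.4 (45.8 and 65.0 in the 2 PTU libraries). The next were the mineralocorticoid receptor Nr3c2 at 8.15, the neural progenitor receptor Nr2e1 (Tlx) at 7.47, Nr4a3 at 6.12, Nr2f1 at 6.08 and Nr4a2 at 5.86, and each of these 5 overlapped with the next of them, while Nr3c2 lay below Rarb without overlap. Esr1 was the lowest of the 19 genes tested in striatum at 0.22. In WAT the retinoic acid receptor Rarg led at 7.17 ± 1.25 (SD, n = 4), followed by Nr2f6 at 5.28 ± 0.58, Ppard at 3.57 ± 1.88, Esrra at 3.53 ± 0.37 and Rara at 3.20 ± 0.82, and each of these 5 overlapped with the next of them. Rarb, first in striatum, had 0.63 ± 0.11 in WAT, and Esrrg had 4.01 in striatum and 0.22 ± 0.08 in WAT. Of the exon bases of Rarb 34.1% overlap Top2b on the other strand, and of those of Nr2f6 54.4% overlap Ocel1. The strand setting of the counting is not given, and the part of these overlaps in the levels was not tested. Levels were not tested across tissues, since the 2 tables do not appear to treat reads shared by near-identical genes alike: the median over ribosomal protein pseudogenes of the mean count was 499 in WAT (265 rows) and 0.10 in striatum (295 rows).

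**Figure D1:**
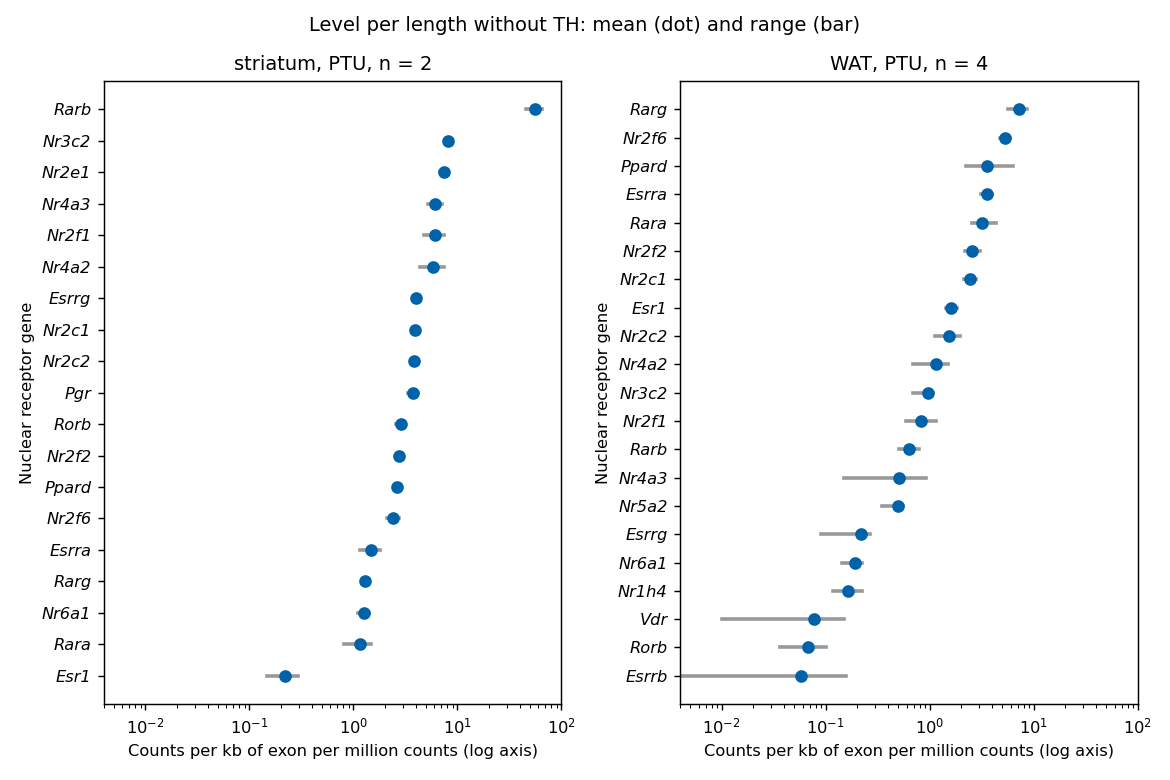
Level of each tested nuclear receptor gene in the PTU libraries, as CPM per kb of exon on a log axis, with the mean as a dot and the range over libraries as a bar (striatum n = 2, left; WAT n = 4, right; the bar of Esrrb in WAT reaches 0 and is drawn to the edge). Rarb stands alone at 55.4 in striatum, and Rarg leads in WAT at 7.17.

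The 7 genes low in both tissues are mainly receptors of liver and gut or, for Esr2, of ovary and prostate. Their mean normalised counts over all libraries of a tissue were 1.39 in striatum and 1.17 in WAT for Esr2, 0.19 and 0.44 for Nr0b2, and 0.29 and 0.38 for Nr1h5. The xenobiotic receptors Nr1i2 and Nr1i3 had means of 0 and 0.56, and of 1.45 and 2.69. The hepatocyte factors Hnf4a and Hnf4g had 0.19 and 1.13, and 0.28 and 0.16. No library held more than 4 reads of any of these 7 genes. Just inside the limit of 10 in WAT were Rorb at 10.1, Nr1h4 at 10.4 and Esrrb at 11.5, and just outside it were Esrrb at 5.23 and Vdr at 3.51 in striatum and Nr1i3 at 2.69 in WAT. Also low in striatum alone were Nr5a2 (0.41) and Nr1h4 (1.58), beside Esrrb and Vdr, and low in WAT alone were Pgr (1.87) and Nr2e1 (0.75).

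The first question was which of these genes changed in WAT. At 6 h after TH 3 of the 21 genes tested were called, at an adjusted p under 0.05 in the quasi-likelihood test of edgeR over all 17928 genes, and all 3 were higher. Over all genes tested 7.23% were called and 4.18% were called higher. At 24 h again 3 of 21 were called, all higher, against 17.1% of all genes and 7.45% called higher. The genes were the same at both times, Esr1, Esrra and Esrrg, and both comparisons share the PTU libraries. Between 6 and 24 h, 2 of 21 were called and both were lower, Nr3c2 and Nr2c1, against 7.41% of all genes and 4.35% called lower. The median log2 change of the 21 genes was 0.11 at 6 h and 0.11 at 24 h against PTU, beside -0.03 and -0.002 over all genes tested, and the median size of the change without regard to direction was 0.42 and 0.38 beside 0.21 and 0.26. Without PTU library 1 the counts of called genes were 6 at 6 h and 10 at 24 h. Counts over all genes moved too when 1 compared library was left out. They ran from 684 to 1898 at 6 h (1296 with all libraries) and from 1957 to 4264 at 24 h (3060 with all libraries). The share of all genes called without PTU library 1 is not given here. Groups did not overlap for 5 of the 21 genes at 6 h, 3 at 24 h and 4 between the times, against 13.9%, 19.3% and 21.8% of all genes.

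Among the steroid receptors, Esr1, the oestrogen receptor α, gave the clearest change. Normalised counts in the 4 PTU libraries of WAT were 486, 541, 418 and 439. They were 1127, 1492, 1690.0 and 1407 at 6 h, and 1181, 1475, 1707 and 1523 at 24 h. Every library after TH lay above every PTU library, and the lowest of them was more than 2-fold above the highest PTU value. The log2 change was 1.60 ± 0.14 (SE, adjusted p = 4.18e-05) at 6 h and reached 1.64 ± 0.14 (adjusted p = 2.31e-05) by 24 h, that is 3.04-fold and 3.12-fold, with adjusted p from edgeR. Between 24 and 6 h the difference was 0.04 ± 0.14 (adjusted p = 0.888, edgeR), with an approximate 95% interval of -0.23 to 0.31.

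Nr3c2, the mineralocorticoid receptor, which binds aldosterone and, where the enzyme Hsd11b2 is lacking, also glucocorticoids, was at 95.1, 145, 148 and 146 in the PTU libraries of WAT. The 6 h libraries held 166, 165, 170.3 and 171, and the 24 h libraries 91.6, 71.8, 132 and 107. All 6 h values were above all PTU values and above all 24 h values, while PTU and 24 h overlapped. The fall from 6 to 24 h was -0.74 ± 0.19 in log2 (adjusted p = 0.0328, edgeR), and neither time was called against PTU (0.33 ± 0.18, adjusted p = 0.276, and -0.41 ± 0.19, adjusted p = 0.151). The call was kept in 6 of 15 alternative fits. Leaving out any 1 of the 6 h and 24 h libraries other than the 24 h library numbered 3 ended it, with adjusted p from 0.0646 to 0.0839 by edgeR. The PTU libraries were not left out for this comparison. The call was also lost in edgeR with a muscle covariate (-0.61, adjusted p = 0.159) and with an epithelium covariate (-0.97, adjusted p = 0.0697). Each covariate was the mean log2 CPM of the listed markers and not their summed count. The muscle sum was 913 to 93965 at 6 h and 37740 to 278990 at 24 h, with 0 of 7 markers called. The epithelium sum was 132 to 3186 and 50.9 to 70.8, with 3 of 7 tested markers called lower at 24 h than at 6 h.

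In striatum none of the 3 steroid receptors tested was called. Esr1 was low there and its groups overlapped, with 37.7 and 18.8 in the PTU libraries, 28.2 to 68.9 at 12 h and 19.6 to 117 at 24 h. The highest value, 117, was that of the 24 h library numbered 2, which had the highest cortical marker sum, and the other 3 held 19.6 to 42.1. Nr3c2 ran from 397 to 581 over the 10 libraries, with a log2 change of 0.07 ± 0.12 at 12 h and -0.11 ± 0.12 at 24 h. The progesterone receptor Pgr ran from 213 to 354, with -0.16 ± 0.19 and 0.05 ± 0.19.

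The oestrogen-related receptors bind no oestrogen and are known as activators of mitochondrial and oxidative genes. Of the 3 genes tested in WAT, 2 rose at both times. Esrrg had 34.6, 12.0, 33.4 and 35.7 normalised counts without TH, 97.3, 85.3, 86.8 and 108 at 6 h, and 86.8, 87.3, 213 and 81.9 at 24 h. All 8 libraries after TH were above all 4 PTU libraries. The log2 change was 1.70 ± 0.36 (adjusted p = 0.0157) at 6 h and 2.01 ± 0.37 (adjusted p = 0.00308) at 24 h by edgeR. The PTU library numbered 2 was low and the 24 h library numbered 3 was high, and the 24 h change was 1.76 without the former and 1.55 without the latter, with adjusted p of 0.00721 and 0.006 by edgeR.

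Esrra held 376, 291, 338 and 326 normalised counts in PTU, 473, 429.5, 606 and 553 at 6 h, and 510.3, 384, 544 and 497 at 24 h. The groups did not overlap, although the lowest 24 h library lay close to the highest PTU library. The log2 change was 0.63 ± 0.14 (adjusted p = 0.0167) at 6 h and 0.54 ± 0.14 (adjusted p = 0.0179) at 24 h by edgeR. Its calls were lost without PTU library 2 (adjusted p = 0.0559 and 0.058), without 6 h library 3 (0.0534 at 6 h) and without 24 h library 3 (0.0513 at 24 h). Esrrb, the third of the family, was near the lower limit, at 0 to 20.2 in PTU, 10.7 to 13.7 at 6 h and 6.79 to 22.2 at 24 h, with overlapping groups and no call (0.60 ± 0.67 and 0.95 ± 0.66).

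Markers of brown adipocytes moved with these 3 rises in WAT. The summed count of 5 brown adipocyte markers was 1610 to 2968 in PTU, 4419 to 9019 at 6 h and 6833 to 20970 at 24 h, with none of the 5 at 0 in any WAT library, and 2 of 5 were called higher at 6 h and 3 of 5 at 24 h. The 24 h library numbered 3, with the highest Esrrg count, had the highest sum (20970), and the PTU library numbered 2, with the lowest Esrrg count, had the lowest (1610). Inside the 24 h group the 2 did not otherwise go together. Library 2 had a sum of 17351 and libraries 1 and 4 had 6833 and 7138, while Esrrg was at 81.9 to 87.3 in all of them. The sum of 6 adipocyte markers was 364963 to 470018 in PTU, 305625 to 364194 at 6 h and 229010 to 323656 at 24 h, so it was lower in every library after TH. The part of either list in the rises was not tested. The muscle sum overlapped between PTU and both times. With the muscle covariate, the mean log2 CPM of these markers, the changes of Esr1, Esrrg and Esrra were 1.59, 1.72 and 0.68 at 6 h. At 24 h they were 1.65, 1.99 and 0.50. Every adjusted p at both times was at or under 0.0326 by edgeR.

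**Figure D2:**
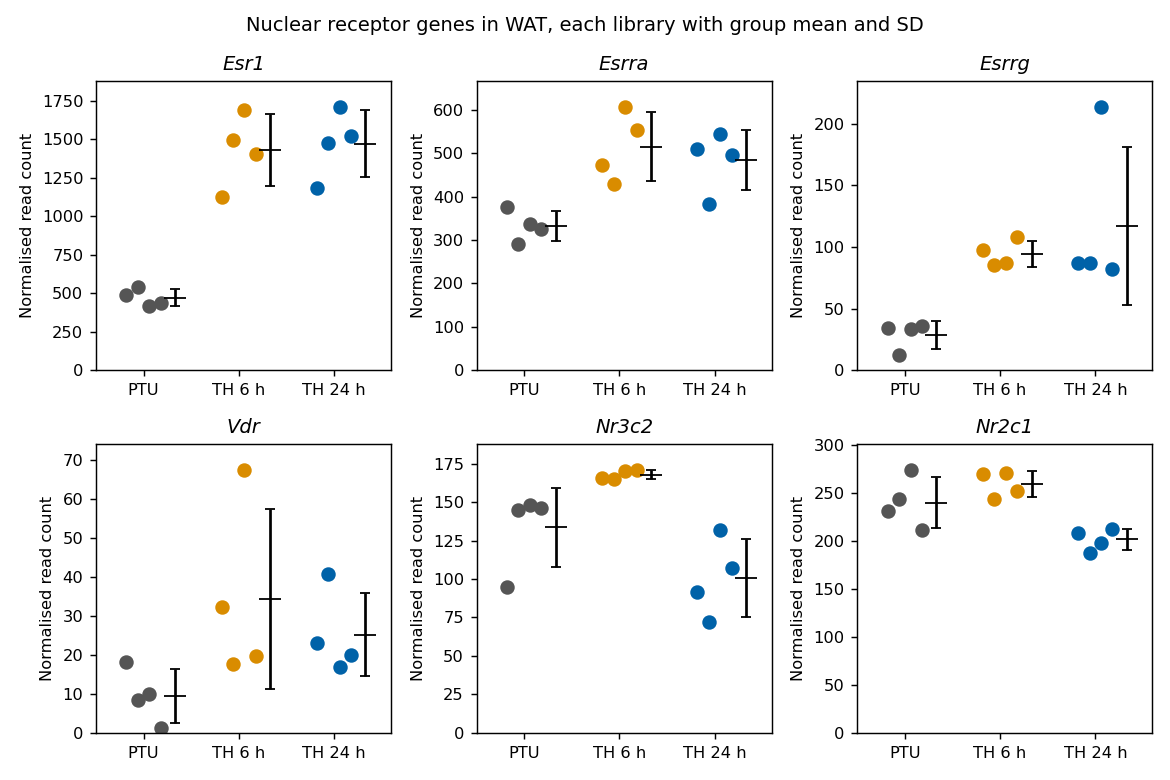
Normalised read counts in the 12 WAT libraries (dots, left to right by replicate number) for 6 nuclear receptor genes without TH (PTU), 6 h and 24 h after TH, with the group mean and SD beside the dots (n = 4 each). Esr1, Esrra and Esrrg lie above all PTU libraries at both times, and Nr3c2 and Nr2c1 are lower at 24 h than at 6 h.

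In striatum the same family gave no call. Esrrg was at 230 and 238 in PTU, 248 to 403 at 12 h and 207 to 414 at 24 h. Its 12 h libraries were all above PTU, but the change of 0.46 ± 0.25 was not called (adjusted p = 0.324, edgeR). Esrra overlapped between groups, at 48.2 and 74.2 in PTU and 63.2 to 91.9 after TH, with 0.35 ± 0.21 at 12 h and 0.38 ± 0.21 at 24 h.

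The retinoic acid receptors bind all-trans retinoic acid as partners of the retinoid X receptors. In striatum Rara (RARα) was the only one of the 19 genes tested that was called at 12 h, against 0.96% of all 15827 genes and 0.733% called higher. Its normalised counts were 60.8 and 33.6 in the PTU libraries, 103, 122, 149 and 117 at 12 h, and 63.5, 93.0, 70.2 and 86.3 at 24 h. All libraries at 12 h were above all at 24 h, and all at 24 h were above both PTU libraries. The log2 change at 12 h was 1.38 ± 0.26 (adjusted p = 0.0372, edgeR) with an approximate 95% interval of 0.88 to 1.88. At 24 h it was 0.73 ± 0.26 and was not called (adjusted p = 0.393), and the difference between the times, -0.65 ± 0.19, was not called either (adjusted p = 0.174).

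The Rara call rests on few libraries. It was kept in 7 of 12 alternative fits and lost without any 1 of PTU 3 (1.85, adjusted p = 0.210), PTU 6 (1.01, 0.241) and 12 h 2, 3 or 4 (1.37, 1.26 and 1.40, with 0.106, 0.0938 and 0.0713). Summed marker counts also stood apart between these groups. The sum for striatal projection neurons was 37938 and 55012 in PTU and 21722 to 35321 at 12 h, and that for cortical excitatory neurons 4316 and 8009 in PTU and 10449 to 15902 at 12 h, without overlap in either, although 0 of the 9 and 0 of the 7 markers were called. The median log2 change was -0.90 over the former and 1.00 over the latter, and their part in the change of Rara was not tested. With a term for the Xist libraries the change of Rara was 1.28 (adjusted p = 0.0444), and among libraries with Xist the values were 33.6 in PTU and 103 at 12 h, and among those without it 60.8 in PTU and 117 to 149 at 12 h.

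Rarb (RARβ), the most abundant receptor of the 30 in striatum, followed the projection neuron markers from library to library. Its normalised counts were 2270 and 3220 in PTU, 1861, 1269, 1207 and 1118 at 12 h, and 3126, 109, 3285 and 1402 at 24 h. The 12 h libraries all lay below PTU, while the 24 h group spread from the lowest to the highest value of all. The 10 libraries stood in the same order by Rarb and by the summed projection neuron markers, a description over 10 libraries in which both values come from the same RNA. The 12 h change was -1.01 ± 0.79 in log2 (adjusted p = 0.505, edgeR) and the 24 h change -0.47 ± 0.80 (adjusted p = 0.881), and the latter was -0.10 without the library of 109. Fitted with the 12 h and PTU groups alone, the 12 h change was called (adjusted p = 0.0198). A further limit is that 34.1% of the exon bases of Rarb overlap the gene Top2b on the other strand, and the strand setting of the counting is not given in the sources used here.

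Rarg differed little in striatum, between 50.2 and 67.1 over all libraries. In WAT no retinoic acid receptor was called at either time. Rara ran from 241 to 408 in PTU and from 325 to 441 at 24 h, with 0.13 ± 0.16 at 6 h and 0.33 ± 0.16 at 24 h. Rarg ran from 523 to 797 in PTU, 492 to 539.8 at 6 h and 410.2 to 627 at 24 h, with -0.35 ± 0.15 (adjusted p = 0.178) and -0.34 ± 0.15 (adjusted p = 0.156) in the edgeR fit. Rarb had changes of -0.02 ± 0.26 and 0.29 ± 0.26.

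Genes of retinoid handling, a list of 12, were set beside the receptors. In WAT 9 were tested and 3 were called lower at 6 h, with a list median of -0.70, and the same number at 24 h, with a median of -0.47. Of all genes tested 3.05% were called lower at 6 h and 9.62% at 24 h, and these shares, with those called higher, are the background of the other lists in WAT as well. Dhrs3, which turns retinaldehyde back into retinol, fell by 1.67 on the log2 scale at 6 h (SE 0.16, adjusted p = 6.29e-05, edgeR) and by 0.93 at 24 h. Rbp4, the retinol carrier of plasma, fell by 0.65 and 0.95 on the log2 scale. Between 6 and 24 h 2 of 9 rose, against 3.07% of all genes called higher, Aldh1a1, which makes retinoic acid, by 1.08 ± 0.20 and Dhrs3 by 0.74 ± 0.16. In striatum 0 of 11 were called at 12 h and 1 at 24 h, Aldh1a1 at 2.42 ± 0.42 (adjusted p = 0.0463, edgeR), where 0.316% of all genes were called higher. Fitted with the 24 h and PTU groups alone, 0 genes were called at 24 h, so this call was lost. The main fit called 55 genes there, and the fit with a term for the Xist libraries called 3.

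Receptors of lipids, bile acids and vitamin D gave no call in either tissue by edgeR. Vdr, the vitamin D receptor, showed the largest change of any uncalled gene of the set at 6 h in WAT. It was at 18.3, 8.38, 9.93 and 1.23 in PTU, 32.4, 17.7, 67.5 and 19.7 at 6 h, and 23.2, 40.7, 17 and 19.9 at 24 h. The groups overlapped through PTU library 1, and the 6 h change was 1.79 ± 0.57 in log2 (adjusted p = 0.0807, edgeR) and the 24 h change 1.37 ± 0.58 (adjusted p = 0.126). Without PTU library 1 it was called at both times (2.32, adjusted p = 0.0376, and 1.89, adjusted p = 0.0486). At 6 h it was also called by DESeq2 (1.82, adjusted p = 0.0182) and with the muscle covariate in edgeR (2.02, adjusted p = 0.036). The 6 h library numbered 3, with the highest Vdr count, also had the highest epithelium sum (3186). With the epithelium covariate in edgeR the 6 h change of Vdr was 1.25 (adjusted p = 0.136) and the 24 h change 2.44 (adjusted p = 0.0115).

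Ppard (PPARδ), a fatty acid sensor present in most cells, was at 1022, 415, 502 and 364 in PTU, 574 to 628 at 6 h and 647 to 925 at 24 h in WAT. Its PTU library 1 lay above every library after TH and the other 3 lay below, so the change of 0.06 ± 0.26 at 6 h and 0.38 ± 0.26 at 24 h (adjusted p = 0.905 and 0.343, edgeR) depended on that library, and without it both were called (0.51, adjusted p = 0.0399, and 0.81, adjusted p = 0.00214). In striatum Ppard was at 184 in both PTU libraries and at 247 to 297 at 12 h, with no overlap. Its log2 change there, 0.55 ± 0.15, missed the threshold (adjusted p = 0.0932, edgeR) but was called by DESeq2 (adjusted p = 0.0388). Nr1h4, the bile acid receptor FXR, stayed near the limit in WAT, between 5.76 and 21.7, with 0.72 ± 0.35 at 6 h.

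PPAR response genes of fatty acid use, a list of 7, had 1 member higher at 6 h and 2 at 24 h in WAT. Ucp3, a mitochondrial carrier, rose by 1.71 ± 0.16 at 6 h and 2.45 ± 0.16 at 24 h, and Pdk4, which restrains glucose oxidation, by 2.77 ± 0.65 at 24 h. None of the 7 was called in striatum. Of 8 genes of steroid and vitamin D activation and breakdown, 5 were tested in WAT, of which 1 was lower at 6 h and 2 at 24 h. Hsd11b2, which inactivates glucocorticoids, fell by 2.31 and 2.52 on the log2 scale, and Hsd11b1, which regenerates them, fell by 1.37 at 24 h. In striatum 4 of the 8 were tested and none was called.

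**Figure D3:**
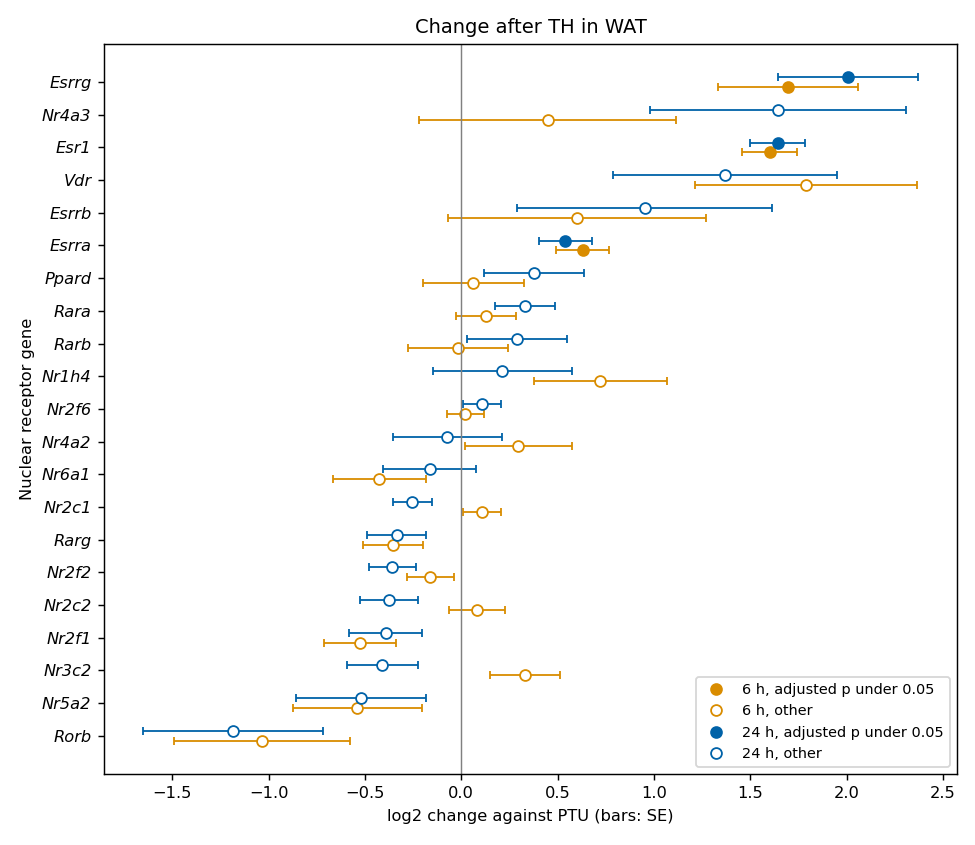
Log2 change against PTU of the 21 nuclear receptor genes tested in WAT, 6 h (orange) and 24 h (blue) after TH, with SE as bars, filled dots for an adjusted p under 0.05 and genes ordered by the 24 h change. Esr1, Esrra and Esrrg carry the filled dots at both times, between 0.54 and 2.01.

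The orphan receptors of the NR2 family and Rorb have no established hormone. In WAT 1 of 6 tested genes was called in any comparison. Nr2c1 (TR2), which often acts as a repressor with its relative Nr2c2 (TR4), was at 232, 244, 274 and 212 in PTU, 271, 244, 271 and 252 at 6 h, and 208, 188, 198 and 212 at 24 h. All 24 h values lay below all 6 h values, but not below all PTU values. The fall from 6 to 24 h was -0.36 ± 0.10 (adjusted p = 0.0476, edgeR). It was kept in 3 of 15 alternative fits and lost on leaving out any 1 of the 6 h and 24 h libraries (adjusted p 0.0718 to 0.106, edgeR). It was also lost in edgeR with the muscle covariate (-0.31, adjusted p = 0.238) and with the epithelium covariate (-0.31, adjusted p = 0.260). Nr2c2 went in the same direction without a call, at 457 to 629.7 at 6 h and 377 to 389.7 at 24 h (-0.46 ± 0.15, adjusted p = 0.081, edgeR), and 30.7% of its exon bases overlap Mrps25 on the other strand.

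The COUP receptors Nr2f1 and Nr2f2, regulators of cell fate and of vessels, were not called in WAT. Nr2f1 held 64.4, 125, 83.9 and 88.5 in PTU and 58.9 to 64.4 at 6 h, all below PTU though the highest only just, with -0.53 ± 0.19 (adjusted p = 0.108, edgeR). Nr2f2 ran from 407 to 558 in PTU and 324 to 451 at 24 h, with -0.36 ± 0.12 (adjusted p = 0.0646). Rorb, a clock-linked receptor of brain and retina, was at 8.65 to 23.9 in PTU, 4.28 to 9.65 at 6 h and 1.11 to 9.7 at 24 h, with -1.03 ± 0.46 and -1.18 ± 0.47 and no call. Nr2f6 ran from 302 to 397 over the 12 WAT libraries, with 0.02 ± 0.10 and 0.11 ± 0.10.

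In striatum none of the 7 genes of this group was called. The 24 h library numbered 2, with the highest cortical marker sum, set the spread of 2 of them. Nr2f1 was at 837 there against 162 to 449 in the other 9 libraries, and Rorb, a marker of layer IV of cortex, at 978 against 239 to 376. Without that library the 24 h change of Nr2f1 went from 0.49 ± 0.52 to -0.14 and that of Rorb from 0.65 ± 0.47 to -0.02. Nr2f2 ran from 185 to 481 at 12 h and from 164 to 237 at 24 h. Nr2f6 was at 58.7 and 76.2 in PTU and 42.6 to 54.8 at 24 h, with -0.49 ± 0.19 (adjusted p = 0.430, edgeR). Nr2c1 (153 to 195) and Nr2c2 (483 to 565) varied little among libraries. Nr2e1 ran from 221 to 382, and its 24 h libraries (299 to 382) all lay above PTU (238 and 284), with 0.33 ± 0.17 (adjusted p = 0.576, edgeR).

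**Figure D4:**
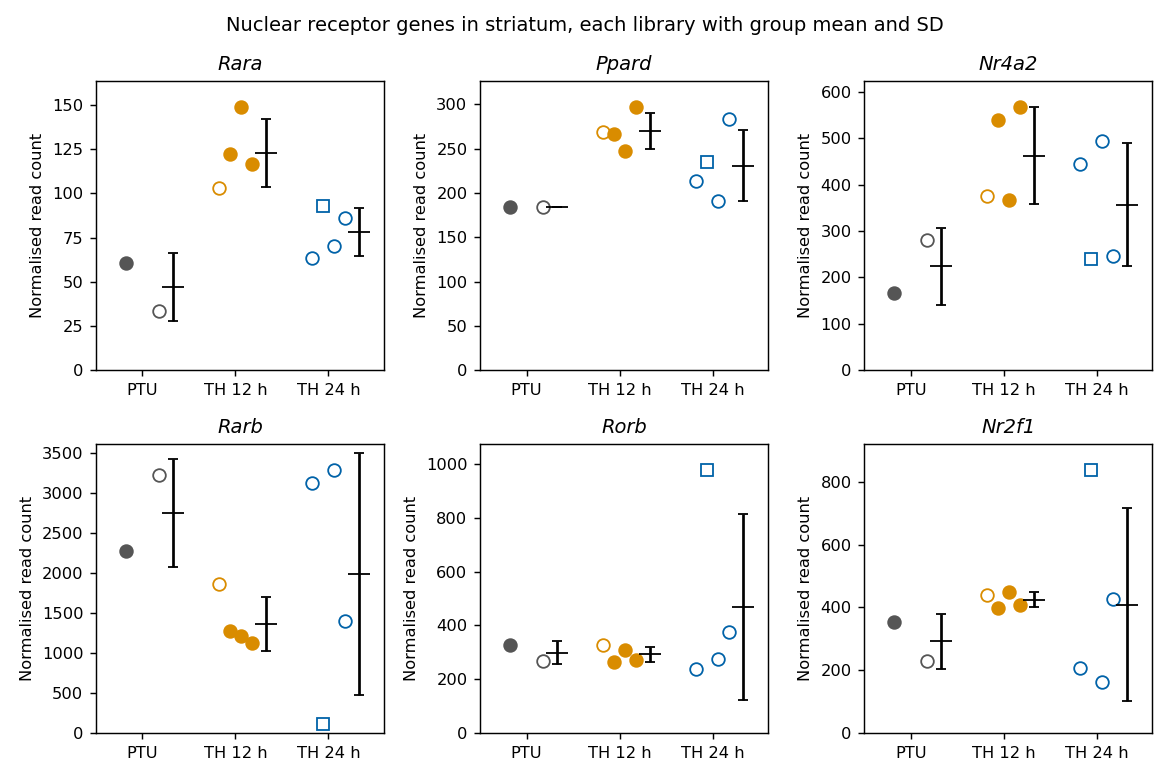
Normalised read counts in the 10 striatum libraries for 6 nuclear receptor genes without TH (PTU), 12 h and 24 h after TH, with the group mean and SD beside the dots (n = 2, 4 and 4). Open symbols are libraries with Xist above 1000 normalised counts. The square is the 24 h library numbered 2, which is lowest for Rarb (109) and highest for Rorb (978) and Nr2f1 (837).

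Of the NR4A, NR5 and NR6 receptors none was called. The NR4A genes are induced within an hour or so by neuronal activity, cAMP and stress and act without a ligand. In striatum Nr4a2 (Nurr1) was at 166 and 282 in PTU, 377, 539, 368 and 567 at 12 h, and 445, 239.9, 495 and 247 at 24 h. The 12 h libraries were all above PTU, with 1.05 ± 0.35 (adjusted p = 0.135, edgeR) and a call by DESeq2 (adjusted p = 0.0361), and the 24 h libraries overlapped with PTU. Nr4a3 (Nor1) was at 397 and 292 in PTU, 362, 584, 590.1 and 562 at 12 h, and 319, 873, 313 and 494 at 24 h. The value of 873 was again in the library with the highest cortical marker sum.

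In WAT Nr4a3 was among the most variable genes of the set, at 19.2, 41.9, 79.4 and 119 in PTU and 76.2, 508, 174 and 48.7 at 24 h. Its change of 1.64 ± 0.66 at 24 h was as large as that of Esr1 but had an adjusted p of 0.109 by edgeR. Nr4a2 ran from 58.8 to 163 over the 12 libraries, with changes of 0.30 ± 0.28 and -0.07 ± 0.28. Nr5a2 (LRH-1), a receptor of liver and steroid tissue, ran from 22.3 to 77.2 with -0.54 ± 0.34 and -0.52 ± 0.34, and Nr6a1 (GCNF), best known in germ cells, from 24.9 to 51.5. In striatum Nr6a1 lay between 107 and 148 with changes of -0.03 ± 0.17 and 0.01 ± 0.17.

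Across the striatum comparisons 1 of 19 genes was called at 12 h, 0 of 19 at 24 h and 0 of 19 between the times. At 24 h 0.348% of all 15827 genes were called. Between 24 and 12 h edgeR called 0 of 15827 genes, with 2309 at an unadjusted p under 0.05, of which 4 were in the set (Rara, Nr2f2, Nr2e1 and Nr2f6), while DESeq2 called 261 genes and none of the 19. At 24 h against PTU, 2 of the 19 had an unadjusted p under 0.05 by edgeR (Rara and Nr2f6), against 1524 of all 15827 genes. DESeq2 called 0 of the 19 there. Groups did not overlap for 8 of 19 genes at 12 h, 4 at 24 h and 1 between the times, against 36.4%, 18.2% and 8.3% of all genes. The median log2 change of the 19 genes was 0.20 at 12 h and 0.33 at 24 h, beside 0.01 and 0.02 over all genes.

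**Figure D5:**
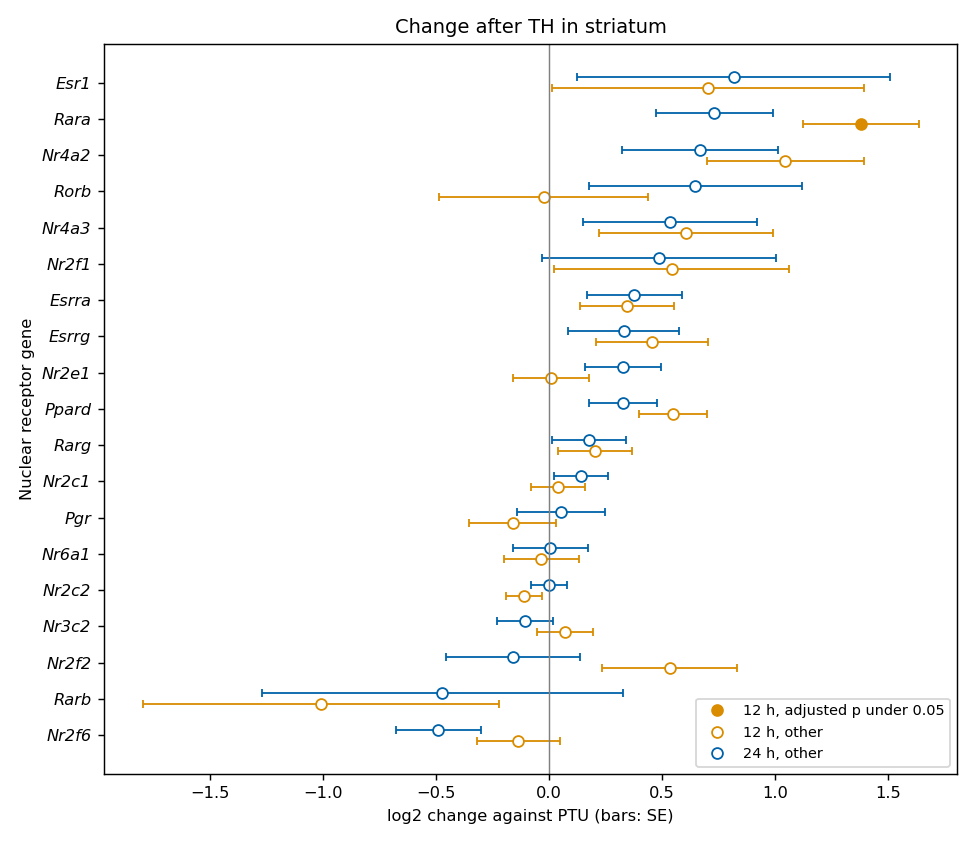
Log2 change against PTU of the 19 nuclear receptor genes tested in striatum, 12 h (orange) and 24 h (blue) after TH, with SE as bars, a filled dot for an adjusted p under 0.05 and genes ordered by the 24 h change. Rara at 12 h (1.38) is the single filled dot, and the bars of Rarb, Esr1, Nr2f1 and Rorb are the widest.

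The next question was whether the response at 24 h, the time that both tissues share, differed between them. A test of the difference itself over the 22 libraries called 2 of 17 genes, both with a change that was higher in WAT, against 4.9% of 12766 genes called and 2.2% called in that direction. For Esrrg the change in WAT exceeded that in striatum by 1.72 ± 0.47 (adjusted p = 0.0363, edgeR). For Nr2f6 the excess was 0.66 ± 0.18 (adjusted p = 0.0389), made of 0.11 ± 0.10 in WAT and -0.49 ± 0.19 in striatum, neither of which was called, and 54.4% of the exon bases of Nr2f6 overlap Ocel1 on the other strand. Esrrg was kept in 9 of 18 alternative fits and Nr2f6 in 5, and both were lost without striatum PTU library 6 (adjusted p = 0.142 and 0.342). The difference for Esr1 was 0.89 ± 0.63 (adjusted p = 0.450, edgeR), and 1.72 (adjusted p = 0.0313) without the 24 h striatum library numbered 2. For Rara it was -0.34 ± 0.30 (adjusted p = 0.559), and for 12 h, a time at which WAT was not sampled, no such test could be made.

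Coactivators and corepressors shared by the receptors, a list of 11, were set beside the receptors as well. In WAT 5 of 11 were higher at 6 h, with a list median of 0.36, and 3 were higher and 1 lower at 24 h, with a median of 0.16. Ppargc1a rose by 3.10 ± 0.18 at 6 h (adjusted p = 1.24e-06, edgeR) and 2.38 ± 0.18 at 24 h, which is 8.59-fold and 5.19-fold. At 6 h the acetyltransferase Ep300 rose by 0.41 ± 0.10 and the mediator subunit Med1 by 0.36 ± 0.09. At 24 h Ppargc1b, a relative of Ppargc1a, was higher by 0.93 ± 0.25, and the coactivator Ncoa1 was lower, at -0.37 ± 0.09. From 6 to 24 h 2 of 11 were called lower, against 4.35% of all genes. Ppargc1a and Ncoa2 fell, by 0.73 and 0.45 on the log2 scale. In striatum 1 of 11 was called higher at 12 h and 0 at 24 h, against 0.733% and 0.316% of all genes. The 24 h change of Ppargc1a in WAT exceeded that in striatum by 1.95 ± 0.24 (adjusted p = 6.98e-05).

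The 19 nuclear receptors outside the set were counted in the same way. Of the 16 tested in WAT, 4 were higher and 1 lower at 6 h, and 1 was higher and 6 were lower at 24 h, with list medians of 0.12 and -0.09, beside the shares of all genes given above (4.18% higher and 3.05% lower at 6 h, 7.45% higher and 9.62% lower at 24 h). At 6 h Nr1d2 (REV-ERBβ, a repressor of the clock) rose by 1.46 ± 0.25, Rxrb, a retinoid X receptor, by 0.57 ± 0.10 and Ppara, the fatty acid receptor, by 2.08 ± 0.43. At 24 h Nr1d1 (REV-ERBα) fell by 1.67 and Rora, which opposes it in the clock, by 1.02 on the log2 scale, and Rxrb was still higher (0.60 ± 0.10). From 6 to 24 h 5 of 16 fell and 0 rose, against 4.35% of all genes called lower and 3.07% called higher. Nr1d2 and Nr1d1 were the steepest at -2.77 ± 0.26 and -2.25 ± 0.20. Time of day was not a term of any fit, and its part in the changes of these clock genes was not tested. In striatum 1 of 14 was called higher at 12 h and 0 at 24 h, against 0.733% and 0.316% of all genes.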

How the data were processed

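RNA-seq was done by the authors on total RNA of striatum and WAT with the Lexogen SENSE kit on a NextSeq 500. Per the methods and processing notes of the authors, reads were mapped with Bowtie2 2.2.6.2 in Galaxy to GRCm38/mm10, those of mapping quality below 10 were dropped, and HTSeq gave a count for each gene. The deposited values are raw counts, 1 table per tissue; annotation release and strand setting are not given in the sources used here.

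Rows with symbols turned into dates (14 in striatum, 15 in WAT, at most 0.201% and 0.0825% of counts) were left out. Counts were scaled by TMM and tested by quasi-likelihood F tests in edgeR 4.0.16 (R 4.3.3, limma 3.58.1), with the 3 groups of a tissue in 1 fit, on genes with a mean normalised count above 10. P-values were adjusted by Benjamini-Hochberg over all genes tested, and an adjusted p under 0.05 was called, with no minimum fold. The SE of a log2 change is its size over the square root of F. The 95% intervals use 1.96 SE, a normal quantile, and are narrower than the F test implies. For Rara in WAT at 24 h the interval was 0.02 to 0.64 with an unadjusted p of 0.055 by edgeR. The difference between tissues at 24 h came from a joint fit of the 22 libraries. Alternatives were DESeq2 1.42.0, RLE size factors, no filter, the compared groups alone and each library of the compared groups left out. Others were the replicate block, a term for the Xist libraries in striatum, and a muscle or epithelium covariate in WAT. Each of these covariates was the centred mean over its markers of log2 CPM (prior count 2), and not their sum. The fit without the 24 h striatum library 2 in the 12 h comparison was chosen after seeing the data.

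The 30 genes, the lists and the tests were chosen with earlier results of these data known. Genes are named as all tested members, and for other lists at most 3 called genes per list and comparison. A few results for genes of those lists are not reported here. Replicates were not said to be separate animals, so p-values measure the spread between these libraries. Replicate numbers did not pair libraries: deviations from the group means of same-numbered libraries correlated at -0.387 to 0.258 in striatum (6 pairs) and -0.466 to 0.383 in WAT (12 pairs). No pair of replicates agreed within counting noise. Of the tests, only those of 24 h against PTU were run on simulated counts, and the outcome is not given here. The simulated counts held no libraries that stood apart.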

Additional observations from a re-analysis of the deposited data

Results flagged for a closer look

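In 101 sets of 4 libraries of 1 group, Dixon's test at the 95% limit marked 7, and chance marks about 1 in 20. In striatum at 12 h, Nr4a3 was at 362 in library 1 against 562 to 590.1 in the other 3. In WAT, Esrrg was at 12.0 in PTU library 2 (others 33.4 to 35.7) and at 213 in 24 h library 3 (others 81.9 to 87.3), while the smallest and largest brown adipocyte sums, 1610 and 20970, stood in the same 2 libraries. The 24 h library 2 also had a high brown adipocyte sum (17351), without a high Esrrg count. The 24 h library 3 was also low for Nr2f1 (57.3 against 71.4 to 73.7) and high for Nr2f6 (397 against 352 to 357). Among the PTU libraries of WAT, Nr3c2 was at 95.1 in library 1 (others 145 to 148), and Nr5a2 at 44.3 in library 4 (others 66.3 to 70.4).

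For 2 genes the 24 h change differed between the tissues by a test of the difference itself, Esrrg by 1.72 and Nr2f6 by 0.66 on the log2 scale, both higher in WAT. Leaving out 1 library ended the call of Esrrg for 7 of 14 libraries and that of Nr2f6 for 9 of 14.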

How the results depend on the processing

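The same 3 genes remained called in WAT at 6 h under the alternatives of tool, scaling, filter and covariate. The counts of nuclear receptor genes called moved as follows. At 12 h in striatum, 1 became 3 with DESeq2 (Rara, Nr4a2 and Ppard), 4 with the 2 groups alone (Rarb in addition), and 0 to 1 on leaving out 1 library. In WAT, leaving out 1 library gave 2 to 6 in place of 3 at 6 h and 2 to 10 in place of 3 at 24 h. The highest counts, 6 and 10, came without PTU library 1, which added Vdr, Ppard and Nr2f1 at 6 h and Esrrb, Nr2c2, Nr2f1, Nr2f2, Nr3c2, Ppard and Vdr at 24 h. With the epithelium covariate 6 of 21 were called at 24 h, against 2733 of 17928 over all genes (3060 in the main fit). Between 24 and 6 h, 2 became 1 with no filter and with the replicate block, 0 with the muscle or epithelium covariate, and 0 to 1 on leaving out 1 library. For the difference between tissues, 2 became 1 with DESeq2 and with RLE, 0 with no filter or the 4 groups alone, and 0 to 2 on leaving out 1 library. The cause was not tested, apart from fewer libraries where a library was left out. Over all genes, the 152 called at 12 h in striatum became 860 with DESeq2, 308 with no filter, 1442 with the 2 groups alone, 60 with the Xist term, and 1257 without 24 h library 2. The 55 at 24 h became 203, 104, 0 and 3 under the first 4 of these, and the 0 between the times 261 with DESeq2 and 41 with no filter. In WAT, DESeq2 gave 2145 for the 1296 at 6 h, the 2 groups alone 834 and the epithelium covariate 831. The 3060 at 24 h became 2037 with the 2 groups alone. The 1329 between the times became 2169 with DESeq2, 2444 with the 2 groups alone, 461 with the muscle and 550 with the epithelium covariate, and the 626 between tissues became 264 with the 4 groups alone. Leaving out 1 library of the compared groups gave 0 to 108, 0 to 115 and 0 to 78 in the 3 striatum comparisons, 684 to 1898, 1957 to 4264 and 661 to 922 in WAT, and 191 to 1014 between tissues.

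The replicate block, with numbers that were not found to pair the libraries, gave 1 in place of 2 genes between 24 and 6 h in WAT and changed no other count of these genes, and over all genes 778 in place of 1329 there and 7 in place of 0 between 24 and 12 h in striatum. No paired analysis was possible for striatum against PTU because those groups share only the number 3. Striatum had 2 PTU libraries and lower depth than WAT, and the effect of depth on the calls was not tested.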
